A study of Homo sapiens with 9 samples.

Results

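DNA replication and S phase genes were followed in SW1783 cells, an established human glioma line, after transfection of the microRNA miR-376a* in its unedited and edited forms. The set is a list of 41 genes that copy DNA or drive entry into S phase, taken by symbol out of 19775 genes with a probe set of their own on the array. Each gene was represented by its brightest probe set over the 9 arrays, and all 41 passed the filter on low signal. The cells had received 50 nM of a synthetic duplex with a lipid reagent, which was a control miRNA or the A or G form of miR-376a* (miR-376a*A, miR-376a*G), and total RNA was taken 24 h later. Each of the 3 groups holds 3 arrays, which the labels call biological replicates without saying whether they were separate cultures on separate days, so p-values measure the spread between these samples. All groups share the line and the transfection, no untransfected cells were among the arrays, and the line is a single cancer line with its own cell cycle defects. Astrocyte genes were only partly present: 7 of 12 astrocytic glioma markers passed the filter, among them VIM, CD44 and SOX9, while GFAP (signal 1.3 to 3.8), S100B (1.0 to 2.6), AQP4, OLIG2 and NES did not.

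A cell licenses its origins in G1, when the origin recognition complex, CDC6 and CDT1 load the MCM helicase onto DNA. In S phase the helicase is activated by CDC45 and the GINS complex, primase and polymerase alpha lay down primers, and the polymerases extend them behind the sliding clamp PCNA, which replication factor C loads. Most of these genes are targets of E2F transcription factors, which cyclin E and its kinase partner help to release from the retinoblastoma protein, so their transcripts are commonly read as a sign of cycling cells.

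The mature strand that the reference lists for the 5' arm of miR-376a is shown, with its seed (bases 2 to 8) in capitals, because both transfected forms are versions of it. The A form carries the genomic base and G stands in for the inosine left by RNA editing. The labels give the letter but not its position, so none is marked. The sequence is from RefSeq on GRCh38.p14, chr14:101040788-101040809, plus strand.
hsa-miR-376a-5p: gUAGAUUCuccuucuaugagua

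Control replicate 1 stood apart from the other arrays. Its highest rank correlation with any other array was 0.941, against 0.969 to 0.970 for the rest. Among the 41 genes it lay 24 times below and 17 times above the mean of control replicates 2 and 3, by a median absolute log2 distance of 0.37, while replicates 2 and 3 lay 0.12 apart. Over all 12505 genes tested the same distances were 0.355 and 0.136, so the departure was not particular to the 41. It was highest relative to them in TK1 (0.93), CHAF1B (0.83) and BLM (0.77), and lowest in DTL (-0.77) and CDT1 (-0.66). The ratio of 3' to 5' control probe sets, a sign of RNA degradation, was 0.87 to 0.93 for GAPDH and 0.86 to 0.91 for ACTB over all 9 arrays, and this array had 0.91 for both. Counts below are therefore given with all arrays and without this one. In the treated groups the median SD of a gene over 3 arrays was 0.063 (miR-376a*A) and 0.079 (miR-376a*G) on the log2 scale, and 0.214 in the controls. Over the 2 controls without replicate 1 it was 0.086.

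Cyclin E1, the uracil glycosylase UNG and the helicase subunit GINS2 rose with both miRNAs, and none of the 41 genes fell with either one. With miR-376a*A, 4 of 41 genes were higher than in control (CCNE1, UNG, GINS2 and TYMS; 9.76%) against 1.95% of 12505 genes tested, at a limma p adjusted over all those genes of under 0.05 (1.38% of all genes were lower and 3.33% changed in either direction). With miR-376a*G, 6 were higher (CCNE1, GINS2, UNG, ORC1, POLE2 and RFC4; 14.6%) against 2.5% of all genes (2.12% lower, 4.62% in either direction). With all arrays 14 and 19 genes of the list had an unadjusted p under 0.05 above control and none below it. Of the 12505 genes tested, 1858 and 2232 had one in either direction. Without control replicate 1 the list counts were 20 above and 1 below (DTL) with miR-376a*A, and 21 above and 2 below (DTL and CHAF1A) with miR-376a*G. The background rose too. Over all 12505 genes, 3549 for the A form and 3957 for the G form then had an unadjusted p under 0.05, counting either direction. The rises were modest, at most 1.85-fold. Both comparisons use the same control arrays, so they are not independent of each other. More cells in S phase and more of a transcript per cell, or fewer and less, cannot be told apart in RNA from whole cultures.

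**Figure D1:**
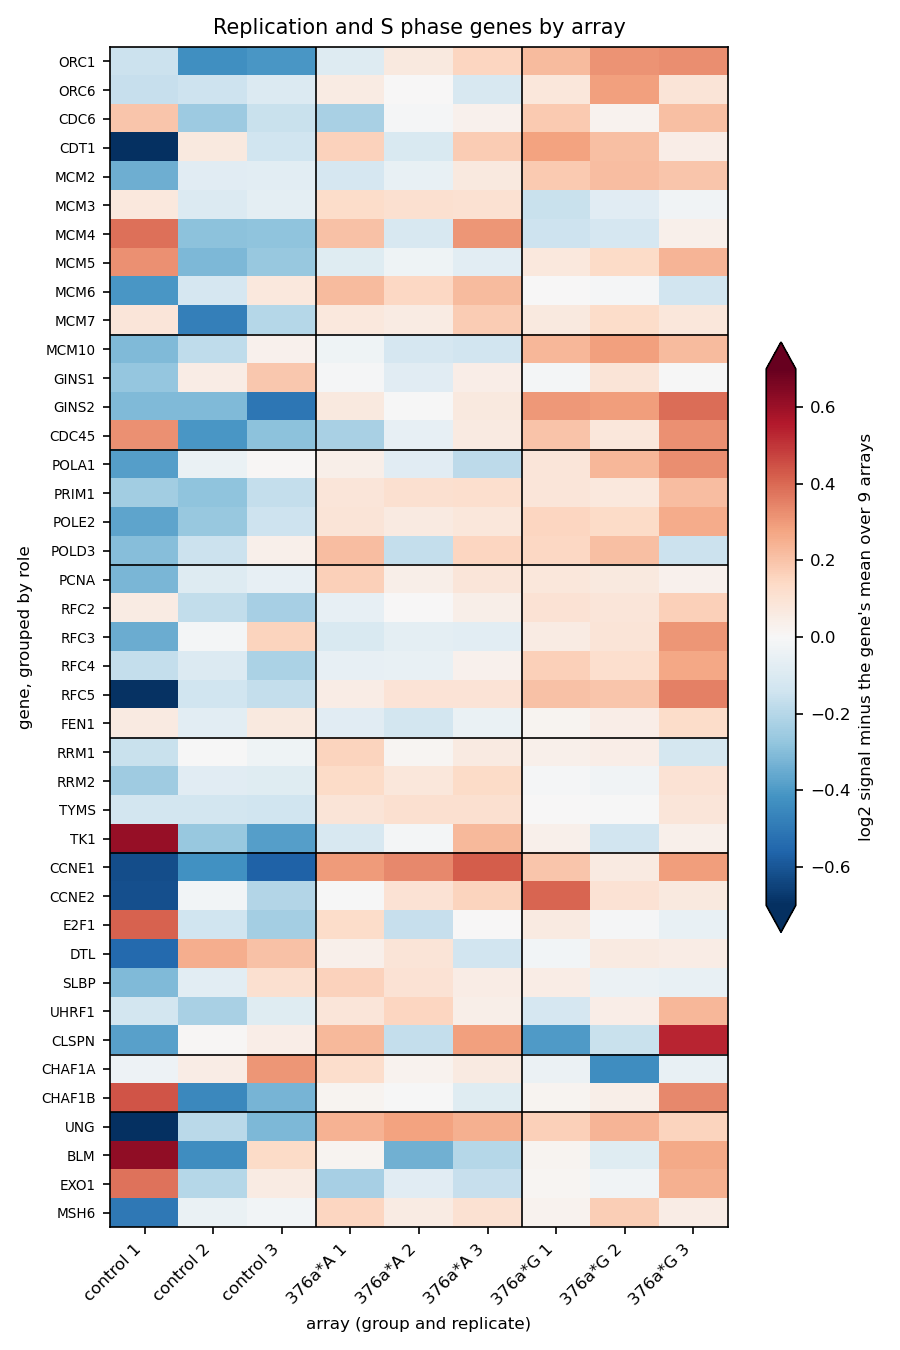
Heat map of the 41 genes (rows, grouped by role with black lines between the roles) on the 9 arrays (columns), as the normalized log2 signal minus the gene's mean over the 9 arrays, with colours saturating at the ends of the scale. The control columns are mostly blue, and control replicate 1 also holds the deepest red cells, TK1 and BLM.

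Over all 41 genes the median log2 difference from control was 0.15 for the A form and 0.22 for the G form, beside 0.01 over all genes tested in both comparisons. With miR-376a*A 34 of the 41 lay above 0 (82.9%, all genes 51.3%), and with miR-376a*G 35 did (85.4%, all genes 51.4%). Without control replicate 1 the medians were 0.18 and 0.22, beside 0.02 over all genes for both. Single genes moved in both directions when that array was left out: 17 differences from control became larger and 24 smaller in either comparison, and 4 for the A form and 9 for the G form turned sign. It also decided how many genes passed: without it 12 were higher with miR-376a*A (29.3%, all genes 6.93% higher, 6.42% lower and 13.3% in either direction) and 16 with miR-376a*G (39.0%, all genes 8.52% higher, 8.47% lower and 17% in either direction), again with none lower in limma's test. In the deposited signals, every miR-376a*A array lay above every control array for 16 genes (all genes 10.5%) and every miR-376a*G array for 18 (all genes 11.4%), while no gene lay below in either comparison (all genes 9.02% and 9.72%).

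Among the regulators of S phase entry, CCNE1, whose protein activates CDK2 at the G1/S boundary, changed most. Its signals were 148, 190 and 174 in the controls, 319, 328 and 348 with miR-376a*A, and 297, 269 and 323 with miR-376a*G. Every treated array was above every control array. The log2 difference was 0.89 (SE 0.11, 1.85-fold, limma adjusted p = 0.00153) with miR-376a*A and 0.72 (SE 0.11, 1.65-fold, limma adjusted p = 0.00440) with miR-376a*G. Both calls held in all 21 alternative settings, with adjusted p up to 0.0173 and 0.0456. A second CCNE1 probe set lay below the filter and gave 0.36 and -0.03, untested. CCNE2, the other cyclin E, had means of 109 ± 27.1 in control, 140 ± 7.45 for the A form and 154 ± 21.1 for the G form (SD, n = 3). Its differences of 0.37 and 0.47 did not pass (limma adjusted p = 0.331 and 0.152), and were 0.20 and 0.30 without control replicate 1.

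E2F1, the activator of many of these genes, had 62.6 ± 17.8 in control, 59.4 ± 7.98 for the A form and 59.8 ± 2.88 for the G form (SD, n = 3). The 95% intervals of its log2 differences ran from -0.40 to 0.35 and from -0.38 to 0.37, so differences within those bounds could not be resolved. With the other 2 controls alone its differences were 0.18 and 0.19 (limma adjusted p = 0.303 and 0.252). Its second probe set gave 0.585 for the A form and 0.09 for the G form, neither past the threshold. DTL (0.03 and 0.06), which directs CDT1 destruction, SLBP (0.19 and 0.08), which binds histone mRNA, UHRF1 (0.24 and 0.20), a reader of methylated DNA at the fork, and the checkpoint mediator CLSPN (0.22 and 0.10) did not pass with either miRNA. Without control replicate 1, DTL turned to -0.23 (95% interval -0.43 to -0.04) and -0.20 (-0.39 to -0.001), with limma adjusted p = 0.114 and 0.155. SLBP was then at 0.08 and -0.03, CLSPN at 0.09 and -0.04, and UHRF1 at 0.245 and 0.21.

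**Figure D2:**
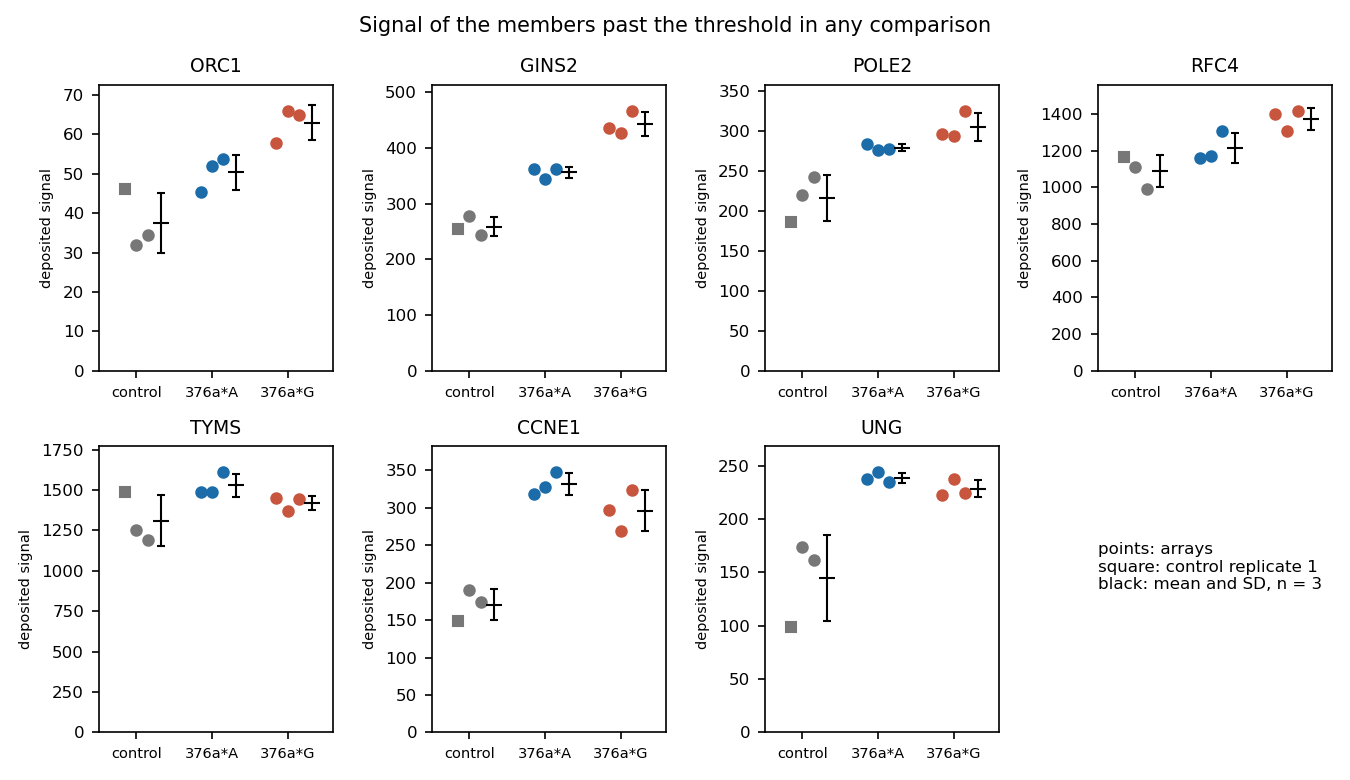
Deposited signal (linear, axis from 0) of the 7 genes past the threshold in any comparison, one point per array, by group, with the mean and SD of 3 arrays in black and control replicate 1 drawn as a square. CCNE1, UNG, GINS2 and POLE2 have all treated arrays above all controls, while the TYMS square lies among the treated arrays.

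GINS2, a subunit of the GINS complex of the active helicase, had control signals of 255, 277 and 244. In cells given the A form they were 362, 344 and 361, and with miR-376a*G 435, 426 and 467. The 3 groups did not overlap, with miR-376a*G above miR-376a*A above control. The differences from control were 0.42 (SE 0.10, limma adjusted p = 0.0493) and 0.70 (SE 0.10, limma adjusted p = 0.00309). This rests on 1 probe set: the second one above the filter gave -0.21 and -0.11, and averaging the probe sets lowered the differences to 0.10 and 0.30 and ended both calls (adjusted p = 0.719 and 0.152). The call with miR-376a*A was the weaker one and was kept in 8 of 21 alternatives, against 20 of 21 with miR-376a*G.

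The other helicase activation genes did not pass. MCM10, which helps the helicase to fire, had 90.7 ± 15.1 in control, 93.0 ± 6.23 for the A form and 123 ± 4.76 for the G form (SD, n = 3), differences of 0.06 and 0.40. CDC45, which joins the MCM ring and GINS in the active helicase, was at 0.05 and 0.325. GINS1, a partner of GINS2 in the same complex, was at -0.002 and 0.03. With control replicate 1 left out, MCM10 (0.32, limma adjusted p = 0.0336) and CDC45 (0.55, limma adjusted p = 0.00554) were higher with miR-376a*G, and GINS1 was at -0.10 (adjusted p = 0.446). With miR-376a*A they were then at -0.02 (MCM10), 0.28 (CDC45) and -0.13 (GINS1), none past the threshold.

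In origin licensing, ORC1, the ATPase of the origin recognition complex, rose with miR-376a*G. Its control signals were 46.1, 31.9 and 34.4, its miR-376a*A signals 45.3, 52.0 and 53.7, and its miR-376a*G signals 57.8, 66.0 and 64.8. All miR-376a*G arrays lay above the controls, whereas control replicate 1 lay within the miR-376a*A range. The differences were 0.62 with miR-376a*G (SE 0.12, limma adjusted p = 0.0176) and 0.37 with miR-376a*A (SE 0.12, limma adjusted p = 0.154, and 0.0135 without control replicate 1). Of the other 9 licensing genes none passed with all arrays. The loaders gave 0.12 and 0.29 (ORC6), 0.005 and 0.21 (CDC6), and 0.335 and 0.435 (CDT1) with miR-376a*A and miR-376a*G. The CDT1 values rest on control replicate 1 and were 0.12 and 0.22 without it.

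The 6 subunits of the MCM helicase ring did not move as a block, and none passed. In the order miR-376a*A then miR-376a*G their log2 differences from control were 0.13 and 0.36 for MCM2, 0.15 and -0.06 for MCM3, 0.20 and -0.015 for MCM4, 0.02 and 0.23 for MCM5, 0.35 and 0.11 for MCM6, and 0.30 and 0.29 for MCM7. MCM3 had 554, 553 and 556 with miR-376a*A, above all controls (517, 476 and 481) and all miR-376a*G arrays (460, 477 and 509). For MCM2 it was the miR-376a*G arrays (341, 350 and 348) that lay above both the controls (214, 284 and 286) and the miR-376a*A arrays (274, 288 and 310), and the latter 2 groups overlapped. With the other 2 controls alone, MCM7 was higher with both miRNAs (0.44 and 0.43, limma adjusted p = 0.00695 and 0.00694), MCM4 with miR-376a*A (0.42, limma adjusted p = 0.0378), and MCM5 (0.44, limma adjusted p = 0.00437) and MCM2 (0.27, limma adjusted p = 0.0424) with miR-376a*G. CDC6 also passed there (0.345, limma adjusted p = 0.0357). MCM6 shrank to 0.22 and -0.02 and MCM2 to 0.04 with miR-376a*A, while MCM5 was at 0.23 with miR-376a*A, MCM4 at 0.21 with miR-376a*G and MCM3 at 0.20 and -0.01, none of them past the threshold.

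Of the polymerase genes, POLE2, a subunit of the leading strand polymerase epsilon, had control signals of 186, 221 and 243, miR-376a*A signals of 284, 277 and 278, and miR-376a*G signals of 297, 294 and 326. The treated arrays all lay above the controls. The difference was 0.44 with miR-376a*G (SE 0.10, limma adjusted p = 0.0359) and 0.34 with miR-376a*A (SE 0.10, limma adjusted p = 0.122). PRIM1, the catalytic subunit of primase, had 351.4, 364 and 393 in control, 468, 484 and 487 with miR-376a*A and 478, 464 and 526 with miR-376a*G. No treated array overlapped the controls, yet its differences of 0.34 and 0.35 lay just outside the threshold (limma adjusted p = 0.0783 and 0.0518) and passed without control replicate 1 (0.0182 and 0.0119). POLA1, the catalytic subunit of polymerase alpha (0.065 and 0.36), and POLD3, a subunit of polymerase delta (0.205 and 0.21), did not pass, and were at -0.06 and 0.23 and at 0.13 and 0.13 without control replicate 1.

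At the clamp, RFC4, a subunit of the clamp loader, rose with miR-376a*G: its signals were 1167, 1108 and 994 in control, 1161, 1169 and 1306 with miR-376a*A, and 1397, 1307 and 1418 with miR-376a*G. The miR-376a*G arrays were above all controls, and the miR-376a*A arrays were not. The differences were 0.35 (SE 0.07, limma adjusted p = 0.0166) and 0.14 with miR-376a*A (SE 0.07, limma adjusted p = 0.382). RFC5, another loader subunit, was at 0.58 with miR-376a*G and 0.41 with miR-376a*A, its controls spread widely (155, 256 and 254) and it did not pass (limma adjusted p = 0.0537 and 0.202). Its treated arrays lay at 293, 301 and 298 and at 328, 324 and 368, all above the controls, and 2 other RFC5 probe sets gave 0.03 to 0.205. PCNA, the clamp itself, had 832, 949 and 945 in control, 1148, 1057 and 1149 with miR-376a*A and 1111, 1056 and 1031 with miR-376a*G. Those groups did not overlap with the controls, and the differences of 0.25 and 0.21 did not pass (limma adjusted p = 0.154 and 0.196). RFC2 (0.11 and 0.23), RFC3 (-0.02 and 0.22) and FEN1, the flap nuclease (-0.10 and 0.05), did not pass either. Both miRNA groups of FEN1 overlapped with the controls, and all miR-376a*A arrays lay below all miR-376a*G arrays, with 769, 698 and 755 in control, 688, 673 and 731 with miR-376a*A and 753, 747 and 801 with miR-376a*G. Once control replicate 1 was omitted, RFC5 (0.40, limma adjusted p = 0.00645) and RFC2 (0.32, limma adjusted p = 0.0122) were higher with miR-376a*G. PCNA was then at 0.17 and 0.13, RFC3 at -0.16 and 0.08, and RFC5 with miR-376a*A at 0.235, none past the threshold.

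Among genes of nucleotide supply, TYMS, which makes thymidylate, rose with miR-376a*A by 0.24 (SE 0.05, limma adjusted p = 0.0365). Its deposited signals were 1488, 1256 and 1188 in control, 1486, 1490 and 1612 with miR-376a*A and 1450, 1372 and 1442 with miR-376a*G. These overlap, and only after quantile normalization did the arrays of either miRNA lie above the controls. The call was kept in 6 of 21 alternatives, with adjusted p up to 0.370. The difference with miR-376a*G was 0.16 (limma adjusted p = 0.128). RRM2, the regulated subunit of ribonucleotide reductase, was at 0.25 and 0.16, with a second probe set at 0.57 and 0.44, none past the threshold. RRM1 was at 0.14 and 0.05, and TK1, thymidine kinase, at 0.05 and -0.01 with controls of 893, 471 and 431. Without the highest of these, control replicate 1, TK1 (0.36, limma adjusted p = 0.0451) and RRM2 (0.195, limma adjusted p = 0.0446) were higher with miR-376a*A.

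UNG, which removes uracil from new DNA, led the repair genes. Its signals were 98.9, 174 and 161 in control, 237, 244 and 235 with miR-376a*A, and 223, 237 and 225 with miR-376a*G, with no overlap between treated and control arrays. The differences were 0.70 (SE 0.16, limma adjusted p = 0.0363) and 0.63 (SE 0.16, limma adjusted p = 0.0486). Control replicate 1 was the lowest array, and without it the differences fell to 0.51 and 0.44 while the adjusted p fell to 0.00178 and 0.00403. The calls with all controls were kept in 9 and 7 of 21 alternatives. MSH6, a mismatch repair protein, was at 0.29 and 0.27, and at 0.14 and 0.11 without control replicate 1. The largest differences below 0 with miR-376a*A were in the helicase BLM (-0.28, 95% interval -0.795 to 0.24), the nuclease EXO1 (-0.24, -0.58 to 0.10) and FEN1. With miR-376a*G the largest was in CHAF1A, a subunit of chromatin assembly factor (-0.28, -0.60 to 0.03), while its partner CHAF1B was at 0.245. None of these passed with all arrays. BLM signals were 178, 85.2 and 137 in control, 121, 92.0 and 98.4 with miR-376a*A and 119, 113 and 148 with miR-376a*G. EXO1 signals were 175, 122 and 152 in control, 118, 134 and 121 with miR-376a*A and 141, 140 and 173 with miR-376a*G. In both genes the groups overlapped with the controls and control replicate 1 was the highest array. CHAF1A had 132, 154 and 192 in control, 162, 150.1 and 150.5 with miR-376a*A and 140, 106 and 142 with miR-376a*G, again overlapping. Without control replicate 1 the order changed, and BLM was at -0.02 and 0.22, EXO1 at -0.09 and 0.15, and CHAF1A at -0.11 and -0.355 (95% interval with miR-376a*G -0.64 to -0.07, limma adjusted p = 0.0820). The lowest values with miR-376a*A were then those of DTL (-0.23), RFC3 (-0.16) and GINS1 (-0.13). CHAF1B was higher with both miRNAs (0.365 and 0.52, limma adjusted p = 0.0478 and 0.00775).

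**Figure D3:**
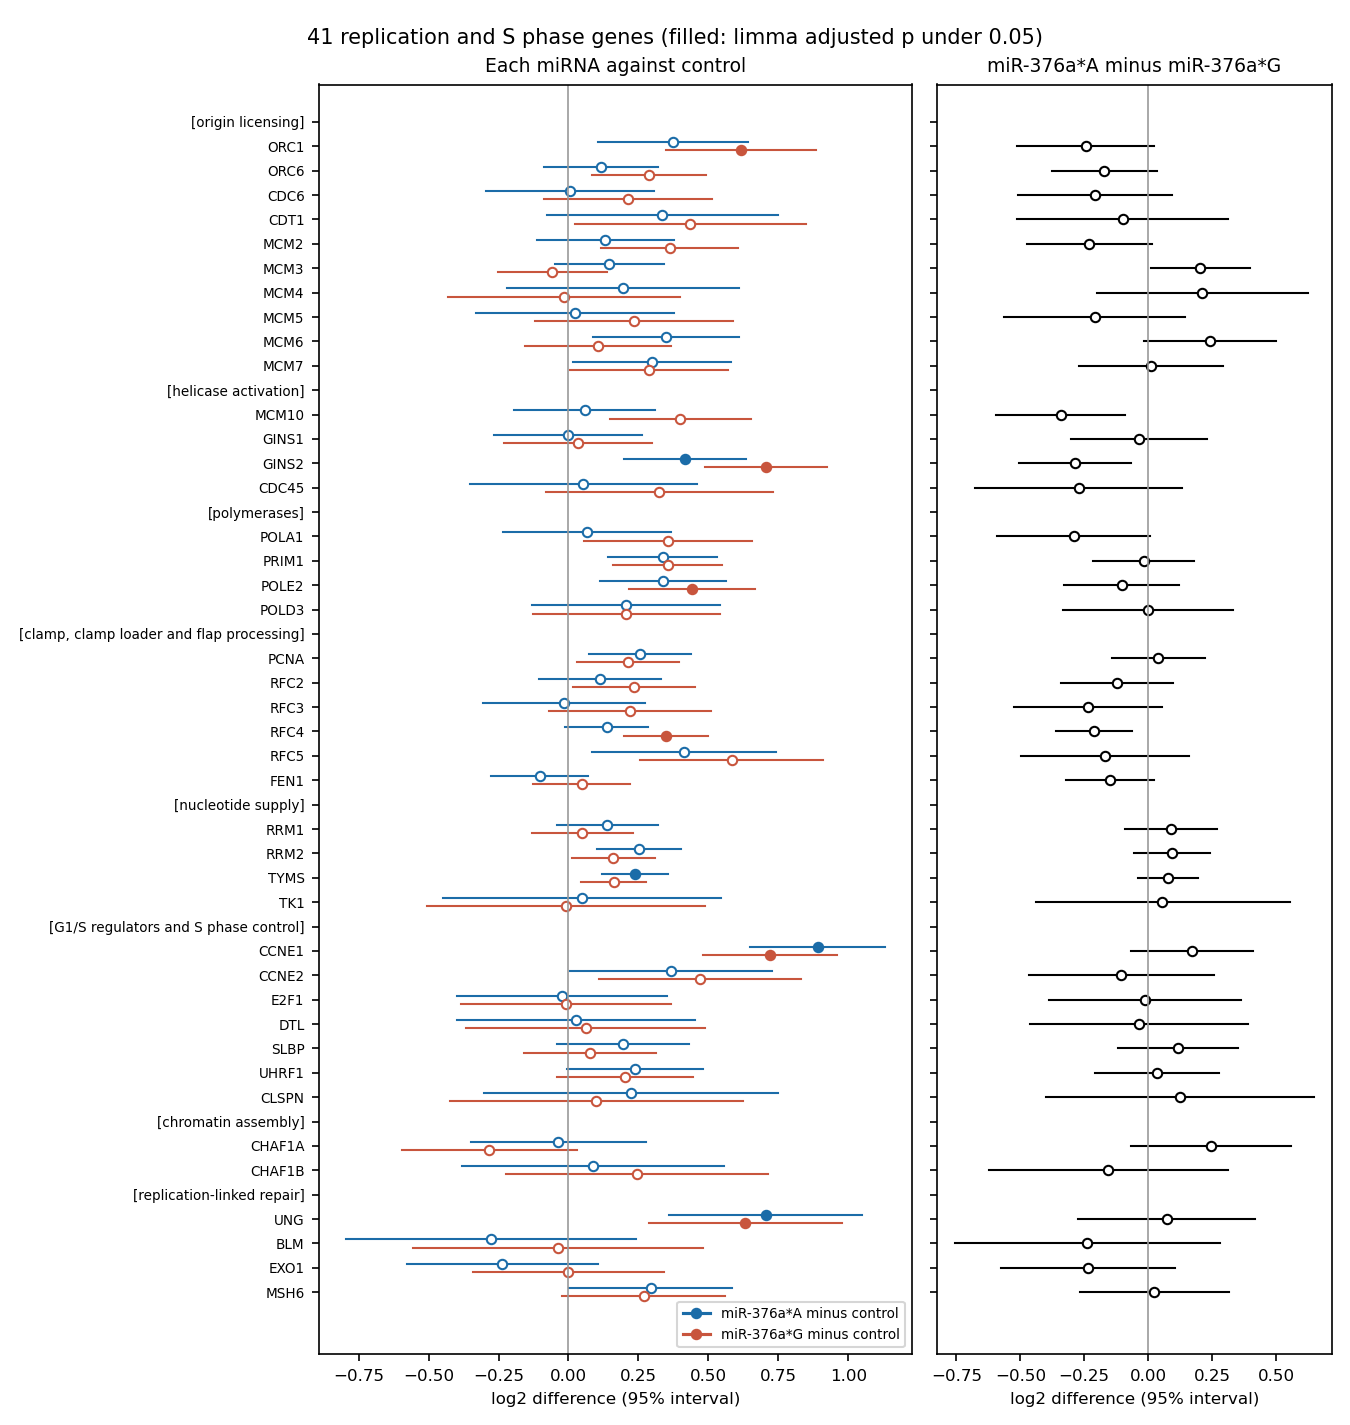
Log2 differences (points, filled where limma's adjusted p was under 0.05) with 95% intervals for the 41 genes by role, on the left each miRNA minus control and on the right miR-376a*A minus miR-376a*G. The largest differences from control are those of CCNE1, 0.89 and 0.72, and no gene is filled on the right.

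With the replicate number as a block, 3 of the 41 genes stayed past the threshold with miR-376a*G (CCNE1, GINS2 and RFC4, with 1.42% of all genes higher). Same-numbered arrays of miR-376a*G and control correlated only weakly in their deviations (r of 0.125 to 0.187), and 1 differently numbered pair reached 0.14. The block ended the calls of ORC1 (limma adjusted p = 0.0553), UNG (0.0705) and POLE2 (0.0807). Leaving out 1 miR-376a*G array gave 2 or 3 calls in place of 6, and leaving out any 1 array other than control replicate 1 gave 1 or 2 in place of 4 with miR-376a*A. The share of all genes called fell as well. It went from 4.62% to between 1.88% and 2.07% with miR-376a*G, and from 3.33% to between 1.41% and 3.23% with miR-376a*A.

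The direct comparison asks whether the edited base changed these genes. None of the 41 differed between miR-376a*A and miR-376a*G in limma (329 of all genes, 2.63%, with 1.39% higher and 1.24% lower with miR-376a*A). An unadjusted p under 0.05 was found for 4 of them and for 1336 of the 12505 genes tested, a similar share. The 4 were MCM10 (-0.34, 95% interval -0.59 to -0.09), GINS2 (-0.29, -0.50 to -0.07) and RFC4 (-0.21, -0.36 to -0.06), lower with miR-376a*A, and MCM3 (0.20, 0.01 to 0.40), higher. The smallest adjusted p was 0.188. With control replicate 1 omitted from the fit, 2 genes had an unadjusted p under 0.05 above 0 and 14 below it. The share of all genes at the same unadjusted p is not given here. Limma's adjusted calls over all genes rose in that fit too, from 2.63% to 9.68%. When control replicate 1 was left out, which enters only through the shared estimate of the spread, MCM10 (limma adjusted p = 0.0217) and GINS2 (0.0369) were lower with miR-376a*A (all genes 4.57% lower, 5.11% higher and 9.68% in either direction).

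By role, the differences between the forms did not all point one way. All 4 helicase activation genes and all 4 polymerase genes had a log2 difference below 0 for miR-376a*A minus miR-376a*G (medians -0.28 and -0.06). Of these, POLD3 (-0.001), PRIM1 (-0.02) and GINS1 (-0.04) were close to 0. All 4 nucleotide genes lay above 0 (median 0.08). Of the 41 genes 39.0% lay above 0, and of all genes 50.1%. Groups of 4 genes are too small to tell a role apart by sign. In all, 15 genes had every miR-376a*A array below every miR-376a*G array (all genes 14.8%) and 6 had them above (all genes 13.6%). CCNE1 differed by 0.17 (-0.07 to 0.41) and UNG by 0.07 (-0.27 to 0.42). PCNA differed by 0.04, with an interval from -0.14 to 0.22, which leaves room for differences of that size in either direction.

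More than 1 probe set above the filter was available for 22 of the 41 genes. All probe sets of a gene pointed the same way in 14 of the 22 with miR-376a*A against control, 16 with miR-376a*G and 16 between the forms. RRM2, TYMS, CCNE2, CDT1, MCM7, MSH6, CDC6, MCM5, RFC5, DTL and CLSPN were on the positive side of control with both miRNAs in all their probe sets above the filter. GINS2, E2F1, RRM1, MCM4, MCM10, POLD3, RFC2, RFC3, TK1 and CHAF1A had probe sets of opposite sign in at least 1 comparison with control.

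Promoters are shown for the gene with the largest rise, for GINS2, and for 2 genes with a match to the E2F-type strings searched, so that the shared sequence can be seen beside the values. In the RefSeq table (GRCh38.p14) 37 of the 41 genes had a 300-base window, from 250 bases before the start. TTTGGCGC or TTTCGCGC, on either strand, was found in 11 of these 37 windows (29.7%), against 1.94% of 10180 windows of genes tested and 1.18% of 27305 windows. Only these strings were searched, so a window without a match, GINS2 included, may hold another form of E2F site. The 11 were CDC6, MCM2, MCM3, MCM6, MCM7, GINS1, POLA1, POLE2, E2F1, DTL and EXO1. Of these, POLE2 passed with miR-376a*G and none with miR-376a*A, while 4 and 5 of the 26 without a match did. CCAAT was found in 24 windows (64.9%, genes tested 36.8%) and TTTGAA in 1 (2.70%, genes tested 10.2%). The stretches below run from 160 bases before the start to 10 after it, all written 5' to 3' on the gene's strand with E2F-type matches in capitals. They lie at chr19:29811831-29812000 (plus), chr16:85688945-85689114, chr14:49688205-49688374 and chr2:135876434-135876603 (all minus). In MCM6 each capital run holds both motifs, on opposite strands and overlapping.
CCNE1: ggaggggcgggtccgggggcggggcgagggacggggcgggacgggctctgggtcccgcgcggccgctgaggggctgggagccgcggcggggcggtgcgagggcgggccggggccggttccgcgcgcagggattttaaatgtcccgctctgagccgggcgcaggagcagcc
GINS2: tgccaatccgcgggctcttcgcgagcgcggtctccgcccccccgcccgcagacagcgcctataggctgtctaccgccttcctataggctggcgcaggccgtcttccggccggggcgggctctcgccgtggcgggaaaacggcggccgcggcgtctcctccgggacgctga
POLE2: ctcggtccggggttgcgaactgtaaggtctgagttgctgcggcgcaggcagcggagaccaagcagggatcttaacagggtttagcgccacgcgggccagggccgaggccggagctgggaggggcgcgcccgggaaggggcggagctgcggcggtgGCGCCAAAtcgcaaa
MCM6: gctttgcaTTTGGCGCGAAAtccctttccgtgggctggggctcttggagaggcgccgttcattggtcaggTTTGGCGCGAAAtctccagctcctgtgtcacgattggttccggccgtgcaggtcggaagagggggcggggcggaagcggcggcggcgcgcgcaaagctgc

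Other genes of the replication fork, 52 of 55 tested, gave 4 higher (7.69%) and 2 lower (3.85%) with miR-376a*A and 3 higher (5.77%) with miR-376a*G. Over all genes 1.95% were higher and 1.38% lower with miR-376a*A, and 2.5% and 2.12% with miR-376a*G. The medians of the fork genes were 0.07 and 0.09. GMNN, geminin, which blocks licensing by binding CDT1, rose from 278 to 582 for the A form and 630 for the G form (1.02 and 1.13, limma adjusted p = 0.00127 and 0.000696). The histone chaperone ASF1A rose by 0.99 and 0.65 and the dUTP hydrolase DUT by 0.47 and 0.41, and RAD51AP1 rose with miR-376a*A (0.97). TOP1 (-0.68) and the polymerase epsilon subunit POLE3 (-0.60) fell with miR-376a*A, and both were also lower than with miR-376a*G (-0.52 and -0.71, limma adjusted p = 0.0131 and 0.000910). POLE3 thus fell with miR-376a*A while POLE2 of the same enzyme was at 0.34 there.

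Of 32 tested G1/S control genes, 4 were higher (12.5%) and 1 lower (3.12%) with miR-376a*A and 2 higher (6.25%) with miR-376a*G (medians 0.12 and 0.07). With all arrays 1.95% of all genes were higher and 1.38% lower with miR-376a*A, and 2.5% and 2.12% with miR-376a*G. The fork and G1/S lists gave no lower call with miR-376a*G. CDK6, the partner of D cyclins, rose by 1.15 and 1.26, and E2F2 by 0.66 and 0.81. E2F8 (0.71) and the CDK inhibitor CDKN1A (0.53) rose and SKP2 (-1.37) fell with miR-376a*A. Among 45 genes of G2/M, the A form gave 8 higher (17.8%) and the G form 11 (24.4%), none lower, with medians of 0.21 and 0.345. CCNA2, cyclin A2, rose most among those past the threshold with miR-376a*G (1.51). Without control replicate 1 these counts were 6 higher and 3 lower with miR-376a*A and 9 and 1 with miR-376a*G for the fork genes, 8 and 2 and 7 and 4 for G1/S, and 18 and 1 and 27 and 0 for G2/M. Over all genes 6.93% were then higher and 6.42% lower with miR-376a*A, and 8.52% and 8.47% with miR-376a*G. The 3 lower fork genes (5.77%) and 2 lower G1/S genes (6.25%) with miR-376a*A are near that background.

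**Figure D4:**
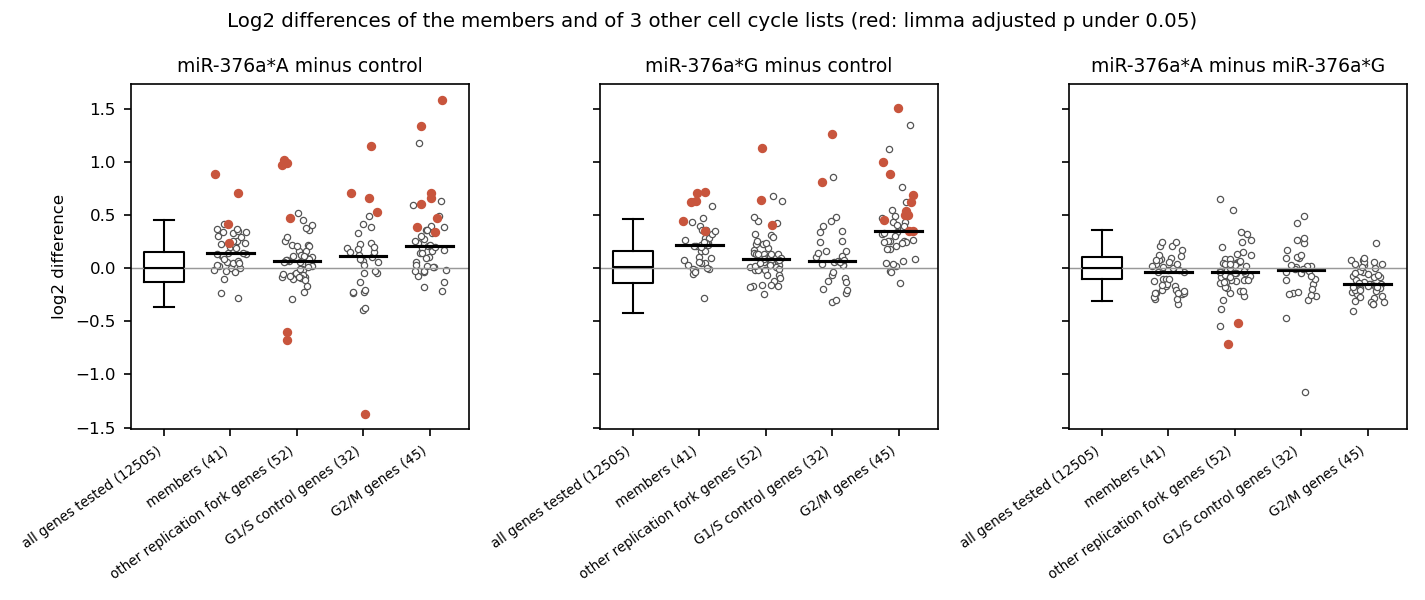
Log2 differences of all genes tested (box from the 25th to the 75th percentile, whiskers to the 5th and 95th), of the 41 genes (members) and of 3 other cell cycle lists, one point per gene, with medians as black bars and genes past limma's threshold in red. The median of the 41 genes lies at 0.15, 0.22 and -0.04 in the 3 comparisons, and that of the G2/M genes at 0.21, 0.345 and -0.15.

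Markers of other cell types were mostly below the filter: 1 of 7 epithelial, 1 of 5 measured leukocyte and 1 of 5 endothelial genes passed it. All 6 neuronal genes did, with summed signals of 1206 to 1537 in control, 1460 to 1540 with miR-376a*A and 1103 to 1287 with miR-376a*G. SNAP25 rose with both miRNAs (1.115 and 0.94), as did STMN2 (0.62 and 0.62), and SYT1 fell with miR-376a*G (-1.10). The part of these in the results on replication genes was not tested.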

How the data were processed

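The authors deposited linear signal intensities of 54675 Affymetrix probe sets for 9 arrays, and the submitters' processing notes name GCOS 1.4.0.036. For probe summary, background removal and scaling target the setting is not given in the sources used here; the 2% trimmed means of 100.01 to 100.013 show a common scaling. Signals were turned into log2(signal + 16) and quantile normalized, which understates changes of dim genes and hides changes shared by most transcripts. Probe sets with 1 platform symbol (41097; 1801 had several, 11777 none) and a mean at or above the 50th percentile were kept, and the brightest represented its gene, giving 12505 genes. Groups were fitted together in limma 3.58.1 (R 4.3.3) with an intensity trend and Benjamini-Hochberg adjustment over all genes, and the fit was tested on simulated data. Fold changes and intervals are on this log2 scale, and the number of arrays limits the precision. The members and gene lists were chosen with earlier results of these data known.

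Replicate numbers are shared between groups. Deviations of same-numbered arrays correlated with r of 0.125 to 0.187 between miR-376a*G and control, all over 0.1, so paired (replicate block) values stand beside that comparison. Differently numbered arrays of miR-376a*G and control ran from -0.285 to 0.14, so the same-numbered values are weak grounds for pairing. Between miR-376a*A and control same-numbered arrays ran from -0.361 to 0.032 and differently numbered ones from -0.267 to 0.371. Between the forms same-numbered arrays ran from -0.098 to -0.031. Arrays were left out one at a time with the normalization and genes kept. Genes named with per-array values are those past the threshold in any comparison or with the 5 largest rises or 3 largest falls against control. E2F1, the E cyclins, PCNA and the MCM ring were named regardless, and PRIM1, MCM10 and other members given per array were chosen after their values were seen.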

Additional observations from a re-analysis of the deposited data

How the results depend on the processing

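CCNE1 passed against control in all 21 alternatives with both miRNAs. Counts of members called are followed by the share of all genes called in the same setting. With miR-376a*A the 4 calls (3.33%) became 2 with arrays centred on medians (2.68%), 2 without normalization (2.83%), 2 without a filter on low values (1.71%), 2 with the filter at the 25th percentile (2.27%), 1 with the replicate block (2.34%) and 1 with only the 6 arrays compared (1.25%). Array weights gave 16 (18.5%) and the replicate block without replicate number 1 gave 8 (12%), so calls rose among all genes too. Leaving out single arrays gave 1 to 12 (1.41% to 13.3%), the highest without control replicate 1. With miR-376a*G the 6 calls (4.62%) became 3 with median centring (3.6%), 3 with the replicate block as a paired fit (2.88%), 2 with the 6 arrays (1.63%), 18 with array weights (19.4%) and 14 with the block without number 1 (12.3%; 13 higher, and CHAF1A lower). Single arrays left out gave 2 to 16 (1.88% to 17%), the highest without control replicate 1. Between the forms, 0 (2.63%) became 7 with array weights (13.2%), 4 with 6 arrays (10.3%) and 0 to 2 on leaving out arrays (9.68% without control replicate 1). Median centring raised the member medians to 0.24 and 0.31, beside 0.06 and 0.05 over all genes. The cause was not tested. A fit of single probe sets was added after seeing the data. It ended the calls of GINS2 with miR-376a*A (limma adjusted p = 0.0576) and of UNG with miR-376a*G (0.0555). The other calls against control stayed.

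Some differences of genes not past the threshold changed sign, among them those of BLM (-0.28) and EXO1 (-0.24), the lowest with miR-376a*A. Against control with miR-376a*A, median centring gave CHAF1A 0.039 and E2F1 0.027, averaged probe sets gave E2F1 0.282, array weights gave BLM 0.083, E2F1 0.085 and EXO1 0.009, and the block without number 1 gave E2F1 0.11. With miR-376a*G, median centring gave BLM 0.042, E2F1 0.033, MCM3 0.036 and MCM4 0.063, a pseudocount of 64 gave EXO1 -0.002, and averaged probe sets gave E2F1 0.042 and MCM4 0.075. Array weights gave BLM 0.33, E2F1 0.16 and MCM4 0.17 there, and the block without number 1 gave BLM 0.24, E2F1 0.16, MCM3 0.027, MCM4 0.244 and MCM6 -0.048. Between the forms, averaged probe sets gave E2F1 0.239 and MCM7 -0.048, array weights MCM7 0, and the block without number 1 CCNE2 0.046. For the A form against control, leaving out single arrays gave -0.109 to 0.063 for CHAF1A, -0.147 to 0.178 for E2F1 and -0.088 to 0.227 for MCM5. For the G form against control it ran from -0.31 to 0.22 for BLM, -0.13 to 0.19 for E2F1, -0.14 to 0.15 for EXO1, -0.13 to 0.21 for MCM4 and -0.023 to 0.217 for MCM6. Between the forms it ran from -0.17 to 0.003 for CCNE2, -0.083 to 0.063 for E2F1 and -0.025 to 0.035 for MCM7. None of these genes was past the threshold with all arrays and the settings of the report.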
